A study of Mus musculus with 22 samples.

Results

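The genes described here are 8 immediate early genes, Fos, Fosb, Junb, Egr1, Arc, Nr4a1, Ier2 and Dusp1. They were chosen by symbol, and all 8 were among the 12596 genes of the expression table. Immediate early genes are transcribed within minutes when a cell receives a strong signal, because the factors that switch them on are already present and only need to be modified, mostly by phosphorylation through calcium, cyclic AMP and MAP kinase signalling. Many of their RNAs and proteins are short-lived, so their levels follow recent activity, and in the brain they are widely used to mark neurons that have lately been active. In the locus coeruleus, the main noradrenergic nucleus of the hindbrain, arousal and stress are known to induce them.

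The mice came from a cross of a Th-cre line with the Slc6a2-eGFP/Rpl10a line on a C57Bl/6 background. The first carries Cre recombinase under control of the gene for tyrosine hydroxylase, and the second carries a green fluorescent tag on the ribosomal protein Rpl10a under control of Slc6a2, the noradrenaline transporter gene. Tagged ribosomes, with the RNA bound to them, can be pulled out of a tissue lysate with an antibody to the tag. In 5 mice hTyr was infused, which is human tyrosinase, the enzyme that makes melanin pigment, and in 6 mice the yellow fluorescent protein EYFP was infused as control. Each mouse gave an immunoprecipitated library (IP, labelled noradrenergic) and a library of RNA from before the immunoprecipitation (input, labelled total hindbrain), so the groups were hTyr IP, hTyr input, EYFP IP and EYFP input. A mouse is named by its IP library (IP_509, for example), and its input library has the same number. Age, sex, the time from infusion to tissue collection and any batch are not given in the sources used here, and neither is whether the animals were handled or stimulated before collection.

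Libraries held 12654489 to 25100142 reads in the table. All 9 noradrenergic markers were higher in IP than in input in both treatments, with Dbh, which makes noradrenaline, 4.02 log2 units higher in the EYFP animals. Summed over these 9 genes, the level lay between 521 and 1150 CPM (reads scaled to a common library size) in EYFP IP and between 656 and 1915 in hTyr IP, against 128 to 170 over the 11 input libraries. RNA of other cells was also present in the IP libraries. The 8 oligodendrocyte markers summed to between 5933 and 8197 CPM over the IP libraries, against 6462 to 9059 over the input libraries, and the 8 astrocyte markers to between 1410 and 2002 CPM in IP. No marker of any list was at 0 in every library. Immediate early genes can be induced in all these cell types, so their IP levels below are levels in the IP libraries, not in noradrenergic neurons alone. In such samples, a smaller share of responding cells and less RNA per cell cannot be told apart.

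A promoter shows one thing that members of this group are known to share, the cyclic AMP response element, the site bound by the factor CREB, with the full form TGACGTCA and the short form TGACG. The RefSeq promoter table for the mouse build GRCm38.p6 matched 5 of the 8 genes, Fos, Fosb, Junb, Nr4a1 and Dusp1. The 250 bases before the listed start of each were searched on both strands. At least 1 short site was found in 5 of these 5 windows, against 17.8% of all 32851 windows of the same length. The Fosb window is not shown. Its short site, 60 bases before the listed start, lies in 73 bases that the RefSeq span of the gene covers. The 4 windows shown have the short sites (TGACG, or CGTCA for the other strand) in capitals and read 5′ to 3′ along the gene. Fos lies at chr12:85473640-85473889 on the + strand, Junb at chr8:84978749-84978998 on the - strand, and Nr4a1 at chr15:101266596-101266845 on the + strand, inside the span of the gene as a longer transcript draws it. Dusp1 is shown at chr17:26508520-26508722 on the - strand, without the 47 bases that another annotated transcript covers as exon.
Fos: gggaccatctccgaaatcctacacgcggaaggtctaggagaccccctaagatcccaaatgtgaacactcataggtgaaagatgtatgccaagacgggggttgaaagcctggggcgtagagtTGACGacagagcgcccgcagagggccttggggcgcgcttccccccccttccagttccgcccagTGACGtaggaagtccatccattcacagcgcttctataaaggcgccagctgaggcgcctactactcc
Junb: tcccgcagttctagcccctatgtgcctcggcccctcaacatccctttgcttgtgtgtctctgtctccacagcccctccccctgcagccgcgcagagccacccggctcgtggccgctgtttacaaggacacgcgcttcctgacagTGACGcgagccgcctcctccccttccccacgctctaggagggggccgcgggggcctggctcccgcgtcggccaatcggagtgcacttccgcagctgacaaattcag
Nr4a1: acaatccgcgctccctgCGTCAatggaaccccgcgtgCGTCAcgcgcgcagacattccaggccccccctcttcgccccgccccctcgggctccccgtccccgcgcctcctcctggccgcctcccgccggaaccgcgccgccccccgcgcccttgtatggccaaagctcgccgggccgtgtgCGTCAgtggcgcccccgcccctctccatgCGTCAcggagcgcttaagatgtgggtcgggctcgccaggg
Dusp1: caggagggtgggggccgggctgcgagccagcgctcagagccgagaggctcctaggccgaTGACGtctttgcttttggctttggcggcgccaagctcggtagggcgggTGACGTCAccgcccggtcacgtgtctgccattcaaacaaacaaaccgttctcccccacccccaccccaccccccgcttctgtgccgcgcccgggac
Nr4a1 held 4 short sites, with their first base 233, 213, 69 and 40 bases before the start. The 2 in Fos began 129 and 66 bases before it, and the single one in Junb 106 bases before it. Only Dusp1 among the 5 held the full site, 143 bases before its start, where each strand of the palindrome also counts as a short site; 1.55% of all windows held it. The zinc finger motif GCGGGGGCG, bound by proteins of the Egr1 family, was found in the windows of Fosb and Nr4a1 and in 2.57% of all windows. In Fosb it began 50 bases before the start, also in the bases that the RefSeq span of the gene covers. The AP-1 motif TGANTCA, which pairs of Fos and Jun proteins bind, and the CArG box, bound by serum response factor, were found in none of the 5 windows and in 6.75% and 1.47% of all windows. TATAAA was found in Fos and in 12.4% of all windows. These matches describe the letters in the windows, not binding, and sequence outside the windows was not searched.

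The transcripts of all 8 genes are richer in G and C than that of the median gene. By the RefSeq annotation of GRCm38.p6, Fos is at chromosome 12, 85473890 to 85477274, Fosb at chromosome 7, 19302696 to 19310118, Junb at chromosome 8, 84976909 to 84978748, and Ier2 at chromosome 8, 84661331 to 84662852. Arc is at chromosome 15, 74669081 to 74672570, Nr4a1 at chromosome 15, 101253902 to 101274795, Dusp1 at chromosome 17, 26505591 to 26508472, and Egr1 at chromosome 18, 34861207 to 34864956. All 8 code for proteins. The GC content of their longest GENCODE transcripts ran from 51.9% in Fos to 62.6% in Junb, against 49.963% for the median gene of the table. These transcripts ran from 1522 bases in Ier2 to 4484 in Egr1, against a median of 3496.

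All 8 genes were detected in all 22 libraries. To compare genes, levels were put on the scale of log2 CPM per kilobase of the longest GENCODE transcript of each gene. For Egr1 that transcript has 4484 bases, more than the 3750 bases of its RefSeq span. A shorter length would raise Egr1 in the orders below. The order in EYFP IP was Dusp1 (3.86), Fos (3.69), Junb (3.63), Arc (3.53), Egr1 (3.24), Nr4a1 (3.04), Ier2 (2.76) and Fosb (0.40). In EYFP input Egr1 came first, at 3.82, followed by Dusp1 (3.78), Arc (3.74), Junb (3.67), Fos (3.60), Nr4a1 (3.36), Ier2 (2.91) and Fosb (0.80). The hTyr groups had Dusp1 first, at 4.07 in IP and 3.98 in input, and the same genes last, Nr4a1, Ier2 and Fosb in that order. Neighbours in these orders overlapped between libraries, apart from Ier2 and Fosb in all 4 groups and Nr4a1 and Ier2 in hTyr input. Fosb rested on few reads, 48 to 146 in the hTyr IP libraries and 60 to 109 in the EYFP IP libraries.

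**Figure D1:**
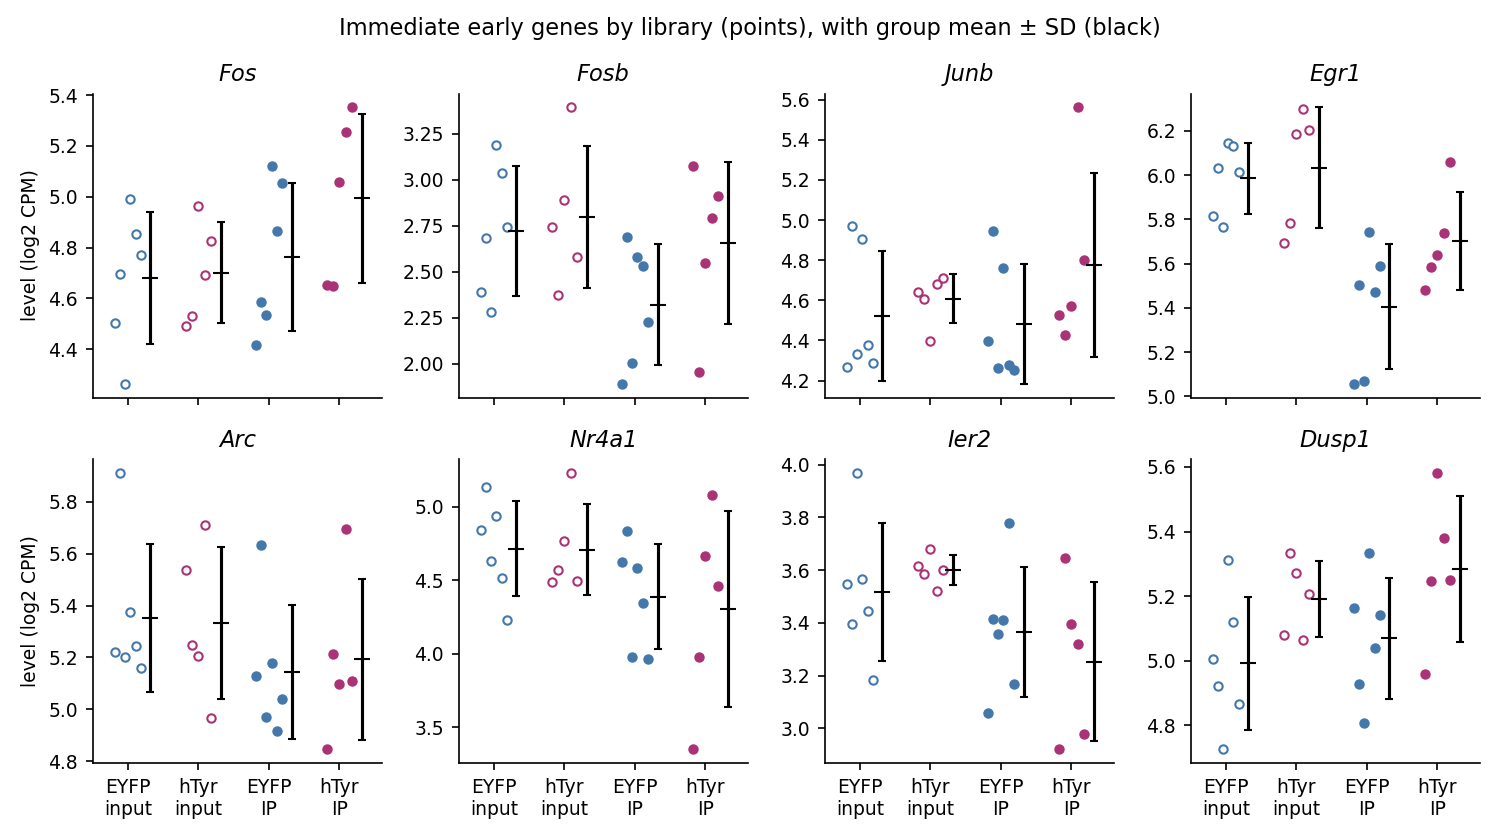
Level of each of the 8 genes in each library, as log2 CPM (vertical axis), by group (EYFP input, EYFP IP, hTyr input and hTyr IP). Points are libraries, with the group mean ± SD in black; the hTyr and EYFP points overlap in every gene in both fractions, and Egr1 in EYFP IP lies wholly below Egr1 in EYFP input.

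The comparison of hTyr with EYFP in IP asks whether the infusion changed the activity genes on tagged ribosomes. An adjusted p under 0.05 (limma, Benjamini-Hochberg over all 12596 genes) was reached by none of the 8 genes, and hTyr and EYFP libraries overlapped in all 8. Over all genes 0.0556% passed and 0.651% had groups that did not overlap. Fos, Fosb, Junb, Egr1, Dusp1 and Arc had higher means in hTyr IP, and Nr4a1 and Ier2 lower ones. The median difference over the 8 was 0.22 on the log2 scale, beside -0.01 over all genes.

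Among the factors that make up AP-1, Fos, the founding member, had 4.65, 4.65, 5.06, 5.26 and 5.35 log2 CPM in hTyr IP, in the order IP_501, IP_502, IP_508, IP_509 and IP_510. In EYFP IP its lowest, median and highest values were 4.42, 4.73 and 5.12. The highest 2 hTyr libraries lay above every EYFP library and the other 3 within their range. The difference was 0.23 (SE 0.16, 95% interval -0.10 to 0.56, adjusted p = 0.862). Its close relative Fosb, whose truncated protein form outlasts repeated stimulation, had 3.08, 1.95, 2.55, 2.79 and 2.91 log2 CPM in hTyr IP against 1.89 to 2.69 in EYFP IP, with 3 hTyr libraries above all EYFP libraries. The difference was 0.34 (SE 0.22, interval -0.13 to 0.81, adjusted p = 0.854). Junb, a Jun protein that pairs with Fos proteins, had 4.52, 4.43, 4.57, 5.56 and 4.802 in hTyr IP against 4.25 to 4.95 in EYFP IP. Only mouse IP_509 was above all EYFP animals, and the difference was 0.295 (SE 0.19, interval -0.10 to 0.69, adjusted p = 0.852). Without mouse IP_509 it was 0.10.

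Egr1, a zinc finger factor induced through MAP kinase signalling, was the single member with an unadjusted p under 0.05, a mark that 6.19% of all genes reached. It had 5.48, 5.59, 5.64, 5.74 and 6.06 log2 CPM in hTyr IP, and 5.06, 5.07, 5.47, 5.501, 5.59 and 5.74 in EYFP IP. Mouse IP_510 alone was above all EYFP animals, and the 3 lowest libraries were EYFP libraries. The difference was 0.30 (SE 0.13, interval 0.01 to 0.58) with an unadjusted p of 0.0407 and an adjusted p of 0.791 by limma. Nr4a1, an orphan nuclear receptor, had 3.35, 3.97, 4.67, 5.08 and 4.46 log2 CPM in hTyr IP, against 3.96 to 4.83 in EYFP IP. Its hTyr libraries spread more widely (SD 0.67, n = 5) than its EYFP libraries (SD 0.36, n = 6), with mouse IP_501 below and mouse IP_509 above every EYFP animal. The difference was -0.08 (SE 0.25, interval -0.60 to 0.44, adjusted p = 0.973).

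Of the members that are not classical DNA-binding factors, Arc, whose protein acts at synapses on glutamate receptor traffic, had 4.85, 5.21, 5.10, 5.69 and 5.11 log2 CPM in hTyr IP, against 4.92 to 5.63 in EYFP IP. These ranges nearly coincided, and the difference was 0.05 (SE 0.15, interval -0.26 to 0.35, adjusted p = 0.973). Ier2, a small nuclear protein induced by growth factors, lay between 2.92 and 3.64 in hTyr IP and between 3.06 and 3.78 in EYFP IP, with a difference of -0.11 (SE 0.16, interval -0.46 to 0.23, adjusted p = 0.935). Dusp1, a phosphatase that switches MAP kinases off again, had 4.96, 5.25, 5.58, 5.38 and 5.25 in hTyr IP against 4.81 to 5.33 in EYFP IP. Its difference was 0.215 (SE 0.12, interval -0.03 to 0.46, adjusted p = 0.827). The highest upper bound of these intervals was 0.81 log2 units, for Fosb, and the lowest lower bound -0.60, for Nr4a1. Reads behind these values were also few for Ier2, at 131 to 262 in the IP libraries, against 471 to 844 for Arc.

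Markers of the cells themselves also differed in their means. The median difference between hTyr and EYFP IP was 0.35 over the 9 noradrenergic markers, of which 8 had higher means in hTyr and none passed the threshold, and 0.12 over the 5 endothelial and mural markers in the table, 0.10 over the 8 oligodendrocyte markers, 0.06 over the 8 astrocyte markers, 0.04 over the 8 microglial markers and 0.04 over the 9 markers of other neurons. In input 1 marker passed, Slc6a2, the gene whose control regions drive the tag, which was lower in hTyr (-0.91, SE 0.13, adjusted p = 0.0339). Their part in the values of the 8 genes was not tested.

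In input, the same comparison gave differences of smaller size than in IP for all 8 genes and no call. None passed the threshold, against 0.00794% of all genes, and none reached an unadjusted p of 0.05, against 3.03%. The differences on the log2 scale were 0.02 for Fos, 0.08 for Fosb, 0.09 for Junb, 0.05 for Egr1, -0.02 for Arc, -0.0049 for Nr4a1 and 0.08 for Ier2. Dusp1 was the member with the largest difference. Its input libraries read 5.08, 5.33, 5.27, 5.06 and 5.21 log2 CPM in hTyr and 4.73, 4.86, 4.92, 5.004, 5.12 and 5.31 in EYFP, so that 4 EYFP libraries were below all hTyr libraries. The difference was 0.20 (SE 0.10, interval -0.01 to 0.41, adjusted p = 0.990), beside 0.215 in IP. The median over the 8 genes was 0.06, beside -0.01 over all genes. In the difference between treatments, IP minus input, none of the 8 genes passed the threshold (adjusted p of 0.996 or more), against 0.00794% of all genes, and none had an unadjusted p under 0.05, against 3.31%. That difference was 0.25 for Egr1 (SE 0.18, interval -0.13 to 0.63), 0.21 for Fos (interval -0.23 to 0.65) and -0.20 for Ier2 (interval -0.61 to 0.22). That fit takes the libraries of a mouse as independent. With the animal as a block the differences were the same and their intervals narrower. They ran from 0.02 to 0.47 for Egr1 (SE 0.11), leaving out 0, from -0.05 to 0.47 for Fos and from -0.58 to 0.19 for Ier2. Egr1 had an unadjusted p of 0.034 and an adjusted p of 0.710 (limma) in the fit with the block. None of the 8 passed in it, against 0.0397% of all genes.

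**Figure D2:**
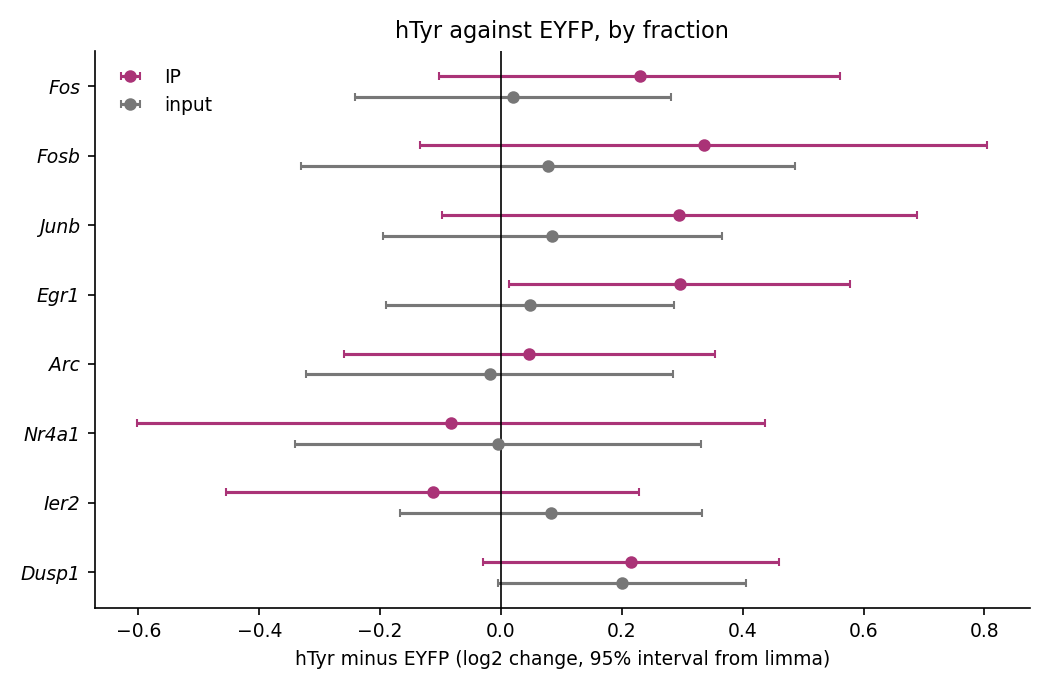
Difference between hTyr and EYFP animals in log2 CPM (horizontal axis) for each of the 8 genes, in IP and in input. Points are limma estimates and bars their 95% intervals; 15 of the 16 intervals cover 0, and Egr1 in IP (0.01 to 0.58) is the exception.

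Comparing IP with input asks which of these RNAs were enriched or depleted on tagged ribosomes. Egr1 was lower in IP than in input in both treatments, and it was the only member to pass the threshold in the fit without the animal. Fos and Dusp1 had slightly higher means in IP in both treatments, while Fosb, Arc, Nr4a1 and Ier2 had lower ones. Passing was common in the fit without the animal. It was reached by 56.5% of all genes in the EYFP animals (28.1% lower, 28.5% higher) and 54.4% in the hTyr animals (27% lower, 27.4% higher). In that fit 1 of 8 is thus a smaller share than that over all genes. With the animal as a block more of the 8 passed, as given below. The median over the 8 genes was -0.18 in EYFP and -0.14 in hTyr, beside -0.03 and -0.04 over all genes.

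Egr1 in the EYFP animals had 5.82, 6.03, 5.77, 6.14, 6.13 and 6.02 log2 CPM in input, in the order of the mice IP_504, IP_505, IP_506, IP_507, IP_511 and IP_512, and 5.06, 5.501, 5.07, 5.74, 5.47 and 5.59 in IP. The highest IP library was below the lowest input library, and over all genes 30.1% had groups without overlap, in either direction. The difference was -0.58 (SE 0.12, interval -0.82 to -0.34, adjusted p = 0.000492). In hTyr animals Egr1 had 5.69, 5.78, 6.18, 6.30 and 6.20 in input and 5.48, 5.59, 5.64, 5.74 and 6.06 in IP, and these ranges overlapped, while 37.5% of all genes had no overlap. The difference was -0.33 (SE 0.13, interval -0.61 to -0.06, adjusted p = 0.0384). It missed the threshold without mouse IP_502 (adjusted p = 0.0508), without mouse IP_508 (0.144) and without mouse IP_509 (0.112), and also once the dependence of each library on GC content and transcript length was removed, when it was -0.14 (adjusted p = 0.417). The EYFP difference was -0.45 after that removal (adjusted p = 0.00469). Animal by animal, IP was below input in 11 of 11 mice, by -0.14 to -0.76 with a median of -0.53.

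Nr4a1 was likewise below its input in 11 of 11 mice, by -0.03 to -1.14 with a median of -0.26. Its differences of -0.33 in EYFP (SE 0.17, adjusted p = 0.102) and -0.40 in hTyr (SE 0.24, adjusted p = 0.167) did not pass in the fit without the animal. Fitted with the animal as a block, 4 of the 8 genes passed in EYFP, all lower in IP, where 64.6% of all genes passed and 33.1% were lower. They were Egr1, Nr4a1 (adjusted p = 0.00154), Arc (-0.21, adjusted p = 0.0101) and Fosb (-0.40, adjusted p = 0.0109). Also with the block, 4 of 8 passed in hTyr, where 59.1% of all genes passed, 29.1% higher and 30% lower. They were Egr1 (adjusted p = 0.00396), Nr4a1 (adjusted p = 0.0163) and Ier2 (-0.35, adjusted p = 0.0427), lower in IP, and Fos, higher in IP (0.29, adjusted p = 0.0216). Arc in EYFP also passed without the block once mouse IP_505 was left out (adjusted p = 0.0385).

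With the length and GC trends removed, the median over the 8 genes became -0.01 in EYFP and 0.08 in hTyr. With the block and that removal together, 3 genes passed in EYFP, where 64.7% of all genes passed (30.4% higher, 34.2% lower). They were Egr1 and Nr4a1 (-0.19, adjusted p = 0.028) lower and Dusp1 higher (0.16, adjusted p = 0.0415). In hTyr it was again 3, against 59.8% of all genes, now all higher in IP, as were 28.4% of all genes. They were Fos (0.38, adjusted p = 0.00196), Junb (0.46, adjusted p = 0.00222) and Dusp1 (0.22, adjusted p = 0.0255). For Junb, mouse IP_509 had 0.88 before that removal, against -0.18 to 0.17 over the other mice. This fit was not run without mouse IP_509. Without the block but with that removal, 2 passed in hTyr, both higher, where 53.5% of all genes passed and 26% were higher. Directions between IP and input other than those of Egr1, Nr4a1, Fos and Dusp1 therefore differed with this scaling for Junb and Ier2 in EYFP and for Fosb and Arc in hTyr.

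Fos was above its input in 9 of 11 mice. In the 5 hTyr mice its IP library exceeded the input library by 0.10 to 0.56, in all 5, while the 6 EYFP mice ran from -0.11 to 0.28. Junb had 1 mouse far from the rest, mouse IP_509, with 0.88 against a range of -0.18 to 0.17 over the other 10 mice, and without it the hTyr difference went from 0.17 to -0.01. Beside these values, 5 of 8 oligodendrocyte markers were lower in IP and 1 (EYFP) or 2 (hTyr) higher, and of 9 markers of other hindbrain neurons 7 (EYFP) or 6 (hTyr) were higher and none lower. Of 8 astrocyte markers 3 (EYFP) or 4 (hTyr) were higher and 2 lower. Of 5 endothelial and mural markers 1 (EYFP) or 2 (hTyr) were higher and none lower, and of 8 microglial markers 0 (EYFP) or 1 (hTyr) higher and 1 lower. Their part in the differences of the 8 genes was not tested.

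**Figure D3:**
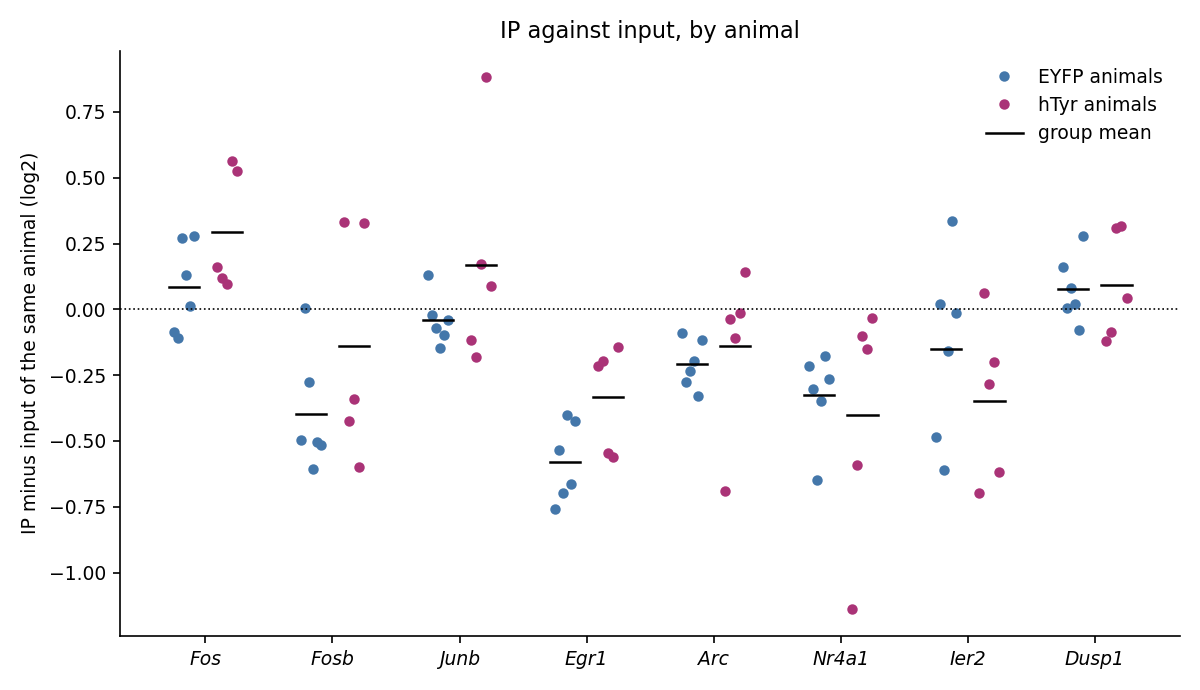
IP minus input of the same animal, in log2 units (vertical axis), for each of the 8 genes. Points are the 6 EYFP and 5 hTyr animals and lines the group means; Egr1 and Nr4a1 lie below 0 in 11 of 11 animals and Fos lies above 0 in the 5 hTyr animals.

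Across mice, the levels of Fos and Egr1 moved together. In the 11 IP libraries Pearson's r between them was 0.870 (permutation p = 0.00012, adjusted p = 0.00264 over the 22 relations tested) and Spearman's rho 0.909 (permutation p = 0.00022, adjusted p = 0.00484). Without the 2 libraries farthest from the median of Fos, neither passed (r 0.757, exact permutation, adjusted p = 0.108, and rho 0.833, adjusted p = 0.0606). For deviations from the 2 treatment means r was 0.854, and in the 6 EYFP animals alone it was 0.881 (exact permutation, adjusted p = 0.109). In input r was 0.806 (permutation p = 0.00295, adjusted p = 0.0325) and rho 0.718 (adjusted p = 0.0703). Without the 2 farthest libraries r in input was 0.812 and did not pass (exact permutation, adjusted p = 0.108). The other 6 genes did not pass against Fos in either fraction over the 11 mice. In the 6 EYFP animals alone, Fosb passed by r against Fos in input (r 0.963, exact permutation, adjusted p = 0.0458; rho adjusted p = 0.0611), as did Egr1 (r 0.961, adjusted p = 0.0458), and over all 11 mice Fosb had 0.667 (adjusted p = 0.0618). Nr4a1, for example, had an r of 0.350 in IP and 0.094 in input.

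Between IP and input of the same mouse, Nr4a1 passed by r and by rho, Junb by rho alone, and the other 6 genes by neither. The r between IP and input over the 11 mice was 0.778 for Nr4a1 (permutation p = 0.00465, adjusted p = 0.0341), with rho 0.873 (adjusted p = 0.00847). Without the 2 farthest mice r for Nr4a1 was 0.607 and did not pass (exact permutation, adjusted p = 0.229). Over the 11 mice r was 0.724 for Fos (adjusted p = 0.0608), 0.716 for Dusp1, 0.683 for Egr1, 0.683 for Arc, 0.649 for Junb (adjusted p = 0.0618) and 0.578 for Fosb. The rho of Junb was 0.855 (adjusted p = 0.0105), and 0.883 without the 2 farthest mice (exact permutation, adjusted p = 0.0606). Ier2 was apart, at -0.02. The r of Arc went to -0.38 without the 2 mice farthest from the median of Arc in input, so it rested on those mice. In all, 3 of the 22 relations passed by r and 3 by rho. Libraries of the same mouse shared deviations over all genes of the table too (mean r 0.448 over the 11 mice, against -0.04 over 110 pairs of different mice).

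**Figure D4:**
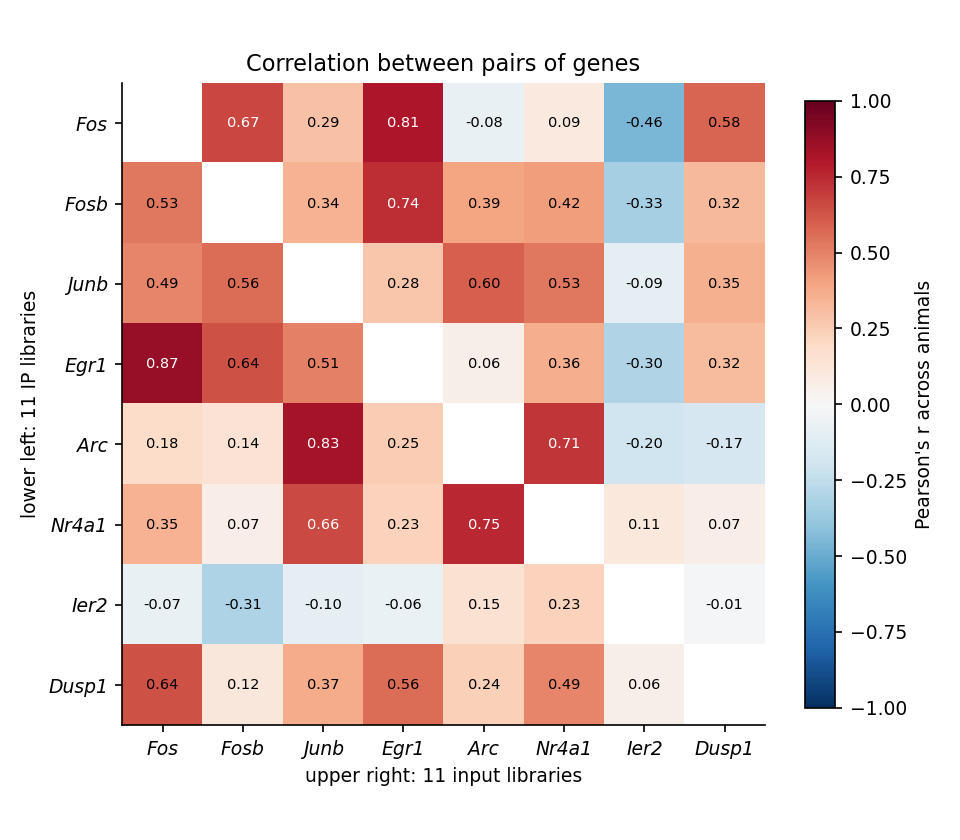
Pearson's r between the levels of each pair of the 8 genes over the 11 animals, in IP (lower left) and in input (upper right), on a colour scale from -1 to 1. Fos with Egr1 is the strongest pair in both, at 0.870 and 0.806.

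Over the 22 libraries, as deviations from the 4 group means, the genes whose pattern was most like the mean of the 8 were Cebpd (r = 0.863), Extl1 (0.853), Sst (0.827), Zbtb40 (0.792), Txnip (0.792), Hspa1b (0.791), Rilpl2 (0.785) and Uimc1 (0.778). Of the 12588 genes compared, 3 had an r over 0.8 and 43 over 0.7. Cebpd is a transcription factor of the acute response, Hspa1b codes for an inducible heat shock protein and Sst for the neuropeptide somatostatin. The 22 libraries came from 11 mice, and libraries of a mouse share its deviations, so these values describe likeness only.

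Other genes of the same programme were read from lists of rapid transcription factors (22 of 25 in the table), rapid signalling, RNA-decay and feedback genes (30 of 35), neuronal activity effectors that follow later (17 of 19) and the upstream kinases and factors (33 of 33). Between hTyr and EYFP in IP, 1 of these 102 genes passed, against 0.0556% of all genes. It was Atf3, a stress-induced factor, with 3.20 ± 0.44 log2 CPM in hTyr IP (SD, n = 5) and 1.67 ± 0.46 in EYFP IP (SD, n = 6), a difference of 1.54 (SE 0.25, adjusted p = 0.0287). That call was lost with quantile normalization (1.94, adjusted p = 0.395) and without any 1 of 9 of the 11 animals (adjusted p of up to 0.167), all but IP_504 and IP_508. The groups did not overlap. Maff, a small Maf factor, had a difference of 0.98 (SE 0.28, adjusted p = 0.533), Adcyap1, which codes for the neuropeptide PACAP, 0.61 (SE 0.15, adjusted p = 0.479) and Syt4, a vesicle protein, 0.33 (adjusted p = 0.759). The list medians were -0.06, 0.01, 0.10 and -0.05. In input and in the difference between fractions none of the 102 passed.

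Between IP and input the counts for these lists come from the fit without the animal. With the animal as a block, 64.6% (EYFP) or 59.1% (hTyr) of all genes passed, and list counts in that fit are not reported here. The counts are read against all genes. Of these, 28.5% were higher and 28.1% lower in EYFP, and 27.4% higher and 27% lower in hTyr. Among the later neuronal effectors 7 of 17 were higher and 2 lower in EYFP IP, with Pcsk1, a prohormone convertase, at 1.24 (adjusted p = 3.96e-06), Syt4 at 0.91 and Scg2, a secretory granule protein, at 0.89, and Nrn1, a neurite growth protein, at -0.58. In hTyr it was 8 higher and 3 lower. Of the 30 rapid effectors 5 were higher and 10 lower in EYFP, and 5 and 9 in hTyr, with the lower ones near the share over all genes. The difference between these lists was not tested. Zfp36 (-0.92, adjusted p = 0.00252) and Zfp36l1 (-0.47), which direct RNA decay, and Spry2, a feedback inhibitor (-0.73), were lower in EYFP IP, and Rgs2, which dampens G protein signalling, was higher (0.35). Of the 33 upstream genes 10 were higher and 11 lower in EYFP, and 11 and 11 in hTyr, near the shares over all genes. Rps6ka5 (0.86), Ppp3ca (0.73) and Map2k1 (0.60), enzymes of the kinase and calcineurin pathways, were higher, and Elk4 (-0.88), Crtc3 (-0.58) and Atf1 (-0.36), factors that act at target promoters, were lower in EYFP IP.

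The rapid transcription factors had 1 higher and 5 lower of 22 in EYFP, and 4 higher and 3 lower in hTyr, all below the shares over all genes (28.5% higher and 28.1% lower in EYFP, 27.4% and 27% in hTyr). The genes are named here after their values were seen. In EYFP IP, Nr4a3, a relative of Nr4a1, was higher (1.03, adjusted p = 0.000447), and Myc (-0.62), Jund (-0.46), Fosl2 (-0.46), Bhlhe40 (-0.32) and Klf6 (-0.26) were lower. Without mouse IP_507 Fosl2 and Klf6 missed the threshold (adjusted p = 0.0603 and 0.0514), as did Klf6 without IP_505 (0.0547) and Fosl2 without IP_511 (0.0578). In hTyr IP, Nr4a3 (1.56), Atf3 (1.31), Maff (1.04) and Klf6 (0.33) were higher and Npas4 (-1.22), Id1 (-0.55) and Jund (-0.52) lower. Klf6 was thus higher in hTyr IP and lower in EYFP IP, but the difference between the treatments did not pass (0.59, adjusted p = 0.455), and in hTyr it was -0.04 once length and GC trends were removed and missed the threshold without IP_501, IP_502 or IP_510 (adjusted p of up to 0.113). Id1 missed it without IP_501, IP_502 or IP_508 (adjusted p of up to 0.103) and after that removal (0.0958), and Jund after that removal (0.191). After removal of those trends, the 22 factors had 1 higher and 6 lower in EYFP and 5 higher and 2 lower in hTyr. Nr4a1 and Nr4a3, members of 1 family, thus had opposite signs in IP against input in both treatments.

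**Figure D5:**
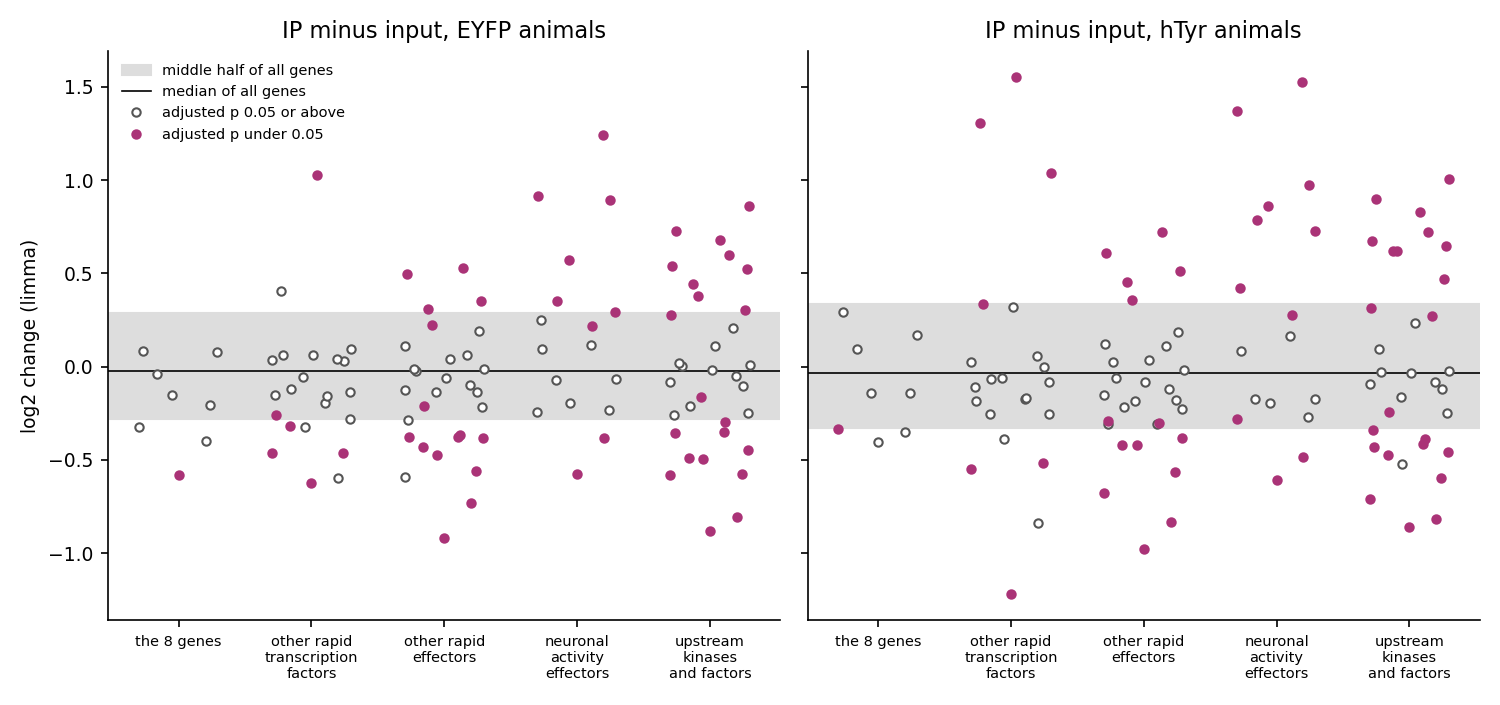
Difference between IP and input in log2 units (vertical axis) for the 8 genes and for each gene of the other activity lists, in EYFP and hTyr animals. Filled points passed an adjusted p of 0.05 by limma in the fit without the animal. The grey band holds the range between the quartiles of all genes, and 1 of the 8 genes is filled in each panel.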

How the data were processed

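Per the submitters' processing notes, STAR and featureCounts were used with the build mm10, and the filter, annotation and normalization method are not given in the sources used here. The authors deposited log2 values for 12596 genes in 22 libraries. Whole reads could be recovered for 100% of the values (tolerance 0.05 reads), which showed log2 CPM with a mean pseudocount of 2 reads. No molecular identifiers are named. The intervals given in the text come from the limma fits, so they reflect the spread between libraries and not counting error alone.

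The 8 genes and the other gene lists were chosen with earlier results of these data known. Genes were tested over the whole table in R 4.3.3 by moderated linear models (limma 3.58.1, prior variance following the mean), with Benjamini-Hochberg adjustment over 12596 genes and a threshold of 0.05 for the adjusted p, on the libraries compared or, for the difference between fractions, on all 22. Every p for a gene is from this test, and every fold change is on the log2 scale with the deposited pseudocount, which understates changes of low genes such as Fosb and Atf3. Correlations used 100000 permutations, or exact permutation for fewer than 10 mice. The recovery of reads and the limma fits were also tested on simulated data.

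IP and input libraries of a mouse carry the same animal number in their titles. Deviations from group means correlated in each of the 11 same-number pairs (r 0.279 to 0.626, mean 0.448), so the numbers pair the libraries. For the 8 genes, fits with the animal as a block are given where they change a call. For the genes of the other lists only the fit without the animal is given. Nothing further says how the mice were housed or pooled.

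From each list the text names genes that passed between hTyr and EYFP, or in the difference between fractions, the 2 with the largest absolute change in IP, of which Dusp5, Pim1 and Camk2a are given only in the closing section and 1 is not reported here, and up to 3 in each direction that passed in EYFP IP against input without overlap. Transcript length and GC content came from the longest GENCODE transcript of each gene, for 12377 genes (98.3%). Their loess trends (span 0.4) were removed in an alternative. Other alternatives were median centring, quantile normalization, a prior variance without trend, the upper 75% of genes by mean, a pseudocount of 5 CPM, voom on recovered reads, sample quality weights, a shared spread and leaving out each animal. Markers not in the table and 21 gene names that are bare numbers were not used here to name genes. Figures were drawn with Python 3.11.15.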

Additional observations from a re-analysis of the deposited data

Results flagged for a closer look

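Arc in mouse IP_505, an EYFP animal, stood apart from the other 5 EYFP mice in both of its libraries. In EYFP IP it was 5.63 log2 CPM, with the next highest mouse at 5.18, a gap of 0.635 of the whole range of the group. In EYFP input it was 5.91, with the next highest at 5.38, a gap of 0.710 of the range. Each gap was above the critical value for a group of 6. Of 32 groups of values checked (8 genes in 4 groups), 2 were marked, beside 1.6 that chance alone would mark. The reads behind the values were 844 in IP and 1246 in input. Without this animal the Arc difference between IP and input in EYFP passed the threshold (limma, adjusted p = 0.0385).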

How the results depend on the processing

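Between hTyr and EYFP, in IP, in input and in the difference between fractions, 0 of the 8 genes passed under every alternative run. Between IP and input, 1 gene passed in each treatment in the fit without the animal. In EYFP the count was 2 with median centring and with sample quality weights, 4 with the replicate block, 3 with the block and the length and GC trends removed, and 1 to 2 without single mice. In hTyr it was 2 with quantile normalization, median centring, voom or the trends removed, 4 with the block, 3 with both, and 0 to 1 without single mice, with 0 without IP_508 or IP_509. The cause of these shifts was not tested, and the block changed no other call for the 8 genes. Directions that turned belonged to differences that had not passed, apart from Klf6. Removal of the trends gave -0.0071 for Fos between treatments in input and, between IP and input with and without the block, 0.15 for Junb and 0.0085 for Ier2 in EYFP and 0.037 for Fosb, 0.11 for Arc and -0.045 for Klf6 in hTyr. Between treatments in input, Arc was 0.0033 and Nr4a1 0.033 with quantile normalization, Arc 0.0081 and Nr4a1 0.022 with median centring, and Nr4a1 0.027 with weights. Weights also gave 0.067 for Nr4a1 between treatments in IP and, in the difference between fractions, 0.047 for Nr4a1 and -0.047 for Dusp1, which was -0.0036 with median centring.

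Without single mice, the ranges that crossed 0 were, between treatments in IP, -0.078 to 0.14 for Arc and -0.28 to 0.16 for Nr4a1. In input they were -0.11 to 0.093 for Arc, -0.064 to 0.082 for Fos, -0.071 to 0.18 for Fosb, -0.018 to 0.13 for Egr1 and -0.14 to 0.079 for Nr4a1. In the difference between fractions they were -0.0050 to 0.20 for Arc, -0.041 to 0.068 for Dusp1 and -0.17 to 0.11 for Nr4a1, and between IP and input in hTyr -0.0089 to 0.26 for Junb.

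Among correlations, r turned without the 2 farthest mice to -0.13 for Junb and -0.085 for Nr4a1 with Fos in input and to -0.38 for Arc between IP and input. As deviations from treatment means it was 0.011 for Ier2 with Fos in IP and 0.029 for Ier2 between IP and input. In EYFP mice alone it was -0.22 for Arc, -0.24 for Nr4a1 and 0.28 for Ier2 with Fos in IP, 0.18 for Arc with Fos in input, and 0.061 for Ier2 between IP and input. With 5 against 6 mice, the widest 95% interval of a treatment difference in IP ran from -0.60 to 0.44, for Nr4a1, and in input Fosb had the widest, -0.33 to 0.49.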

Other observations

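All 28 pairs of the 8 genes were compared over the 11 mice in each fraction, a family of 56 relations chosen after the data were seen. In IP 24 of 28 had a positive r, with a median of 0.300 and a range of -0.305 to 0.870, and in input 20 of 28, with a median of 0.303 and a range of -0.459 to 0.806. Fos with Egr1 in IP was the single pair past the threshold over the 56 (adjusted permutation p = 0.00504). Junb with Arc in IP had an r of 0.832 (adjusted permutation p = 0.0518). It was 0.404 without the 2 mice farthest from the median of Junb and 0.870 for deviations from the treatment means. Arc with Nr4a1 had 0.753 in IP (adjusted permutation p = 0.0955) and 0.712 in input (adjusted permutation p = 0.130). Without the 2 mice farthest from the median of Arc it had 0.606 and 0.227, and for deviations from the treatment means 0.767 and 0.712. The r of Junb with Arc in IP and that of Arc with Nr4a1 in input thus depended in part on the mice left out. Leaving out the extreme mice of 1 gene also narrows its range, which can itself lower r.

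Dusp5, a phosphatase for MAP kinases, differed between hTyr and EYFP IP by -0.42 (SE 0.33, limma adjusted p = 0.874), Pim1, a kinase, by 0.38 (SE 0.17, adjusted p = 0.791) and Camk2a, a calcium-dependent kinase, by -0.33 (SE 0.31, adjusted p = 0.898).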
